A study of Mus musculus with 12 samples.

Results

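The cardiac myosins are the motor proteins of the heartbeat. A myosin molecule of the thick filament pairs heavy chains, which hydrolyse ATP and pull on actin, with an essential and a regulatory light chain at the neck of each head. The genes examined here were *Myh6* (the α heavy chain, the main heavy chain of the adult mouse heart), *Myh7b* (a slow heavy chain whose intron carries a muscle miRNA), *Myl2* and *Myl3* (the regulatory and the essential light chain of ventricular muscle), and *Myl4* and *Myl7* (their atrial counterparts). Histone H3 trimethylated at lysine 4 (H3K4me3), a mark of active promoters that can spread over gene bodies at genes defining a cell type, was taken from every peak that carried one of these 6 gene names. Of 15848 peaks, 4 met that rule, 1 each for *Myh6*, *Myh7b*, *Myl2* and *Myl3*. No row analysed here was named *Myl4* or *Myl7*.

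The marked chromatin came from nuclei of adult cardiomyocytes (CMs), sorted from frozen ventricles with an antibody to the CM protein PCM1. Libraries from 3 control samples (*Ctrl Cre*, αMHC-Cre pos/+; Cpt1b +/+) were set against 3 samples without the muscle carnitine palmitoyltransferase that carries long-chain fatty acids towards mitochondrial oxidation (*Cpt1b cKO*, αMHC-Cre pos/+; Cpt1b fl/fl), in order to ask whether the mark over these genes changes once fatty acid oxidation is blocked. Recombination starts before birth, so the adult CMs had developed without the enzyme. Both genotypes carry Cre under the promoter of α myosin heavy chain, which is the protein of *Myh6*. Reads from a transgenic copy of that promoter and from the *Myh6* locus cannot be told apart where their sequence is the same. The labels do not tie the libraries to single animals, so that p-values measure the spread between these samples.

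Counts in peaks ranged from 763133 to 2766416 per library. All 8 listed CM marker genes had a peak, whereas none of the 6 leukocyte markers, 1 of 6 endothelial and 1 of 6 fibroblast markers did. The summed level of the smooth muscle and pericyte markers (peaks at 3 of 6 genes, none at *Pdgfrb*, *Rgs5* or *Tagln*) was 120 to 154 normalized counts in *Ctrl Cre* and 28 to 58 in *Cpt1b cKO* libraries. Most of the control sum came from *Acta2*, with 97, 119 and 71 normalized counts against 29, 10 and 24 in *Cpt1b cKO*. The peaks of *Myh11* and *Cnn1* were low, and their values overlapped between the genotypes. Y chromosome peaks carried signal in replicate 3 of each genotype and were at 0 in the other 4 libraries. The myosin peaks, and the listed peaks that passed the test, are therefore also given without both replicates 3.

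The *Myh6* peak was the widest and the highest of the table. It ran over chromosome 14 from 54955478 to 54980369 (mm10), a width of 24.9 kb, and reached 13.7 kb upstream of the main *Myh6* start. Inside the gene it covered exons 1 to 20 of 39. On its upstream side it held the whole of *Mhrt*, a non-coding RNA transcribed from the opposite strand, and *Mir208b*. The peak also took in 40.5% of *Myh7*, the gene of the slow β heavy chain, which lies head to tail with *Myh6* and ends 4042 bases before its start. Only the 3′ part of *Myh7* was covered, and the *Myh7* start lay 14257 bases outside the peak. The summit stood 2660 bases upstream of the *Myh6* start and 514 bases from a start of *Mhrt*. The signal of this peak thus belongs to several transcripts, and nothing in it measures the promoter of *Myh7*.

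*Myl2* had the next widest of the 4 peaks, 14033 bases on chromosome 5 (122092887 to 122106920), which ranked 12th by width among the tested peaks. It covered all 7 exons of the main *Myl2* transcript and reached 8064 bases upstream of that start, where RefSeq places 2 further *Myl2* starts, one 302 bases inside the peak and one 163 bases outside it. The *Myl3* peak (chromosome 9, 110763028 to 110769208) was 6.18 kb wide and covered 90.4% of the main *Myl3* transcript, with exons 1 to 5 of 7. It extended only 618 bases upstream. The *Myh7b* peak (chromosome 2, 155611114 to 155615417) was 4.30 kb wide, began 98 bases before the main *Myh7b* start and covered exons 1 to 7 of 42. *Mir499*, the miRNA gene in an intron of *Myh7b*, lay 7463 bases beyond its edge. The summits of these peaks stood 1400, 755 and 589 bases downstream of the starts of *Myl2*, *Myl3* and *Myh7b*. All 4 widths were above 2222 bases, the 75th percentile of the 15039 tested peaks, whose median was 1514 bases.

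**Figure D1:**
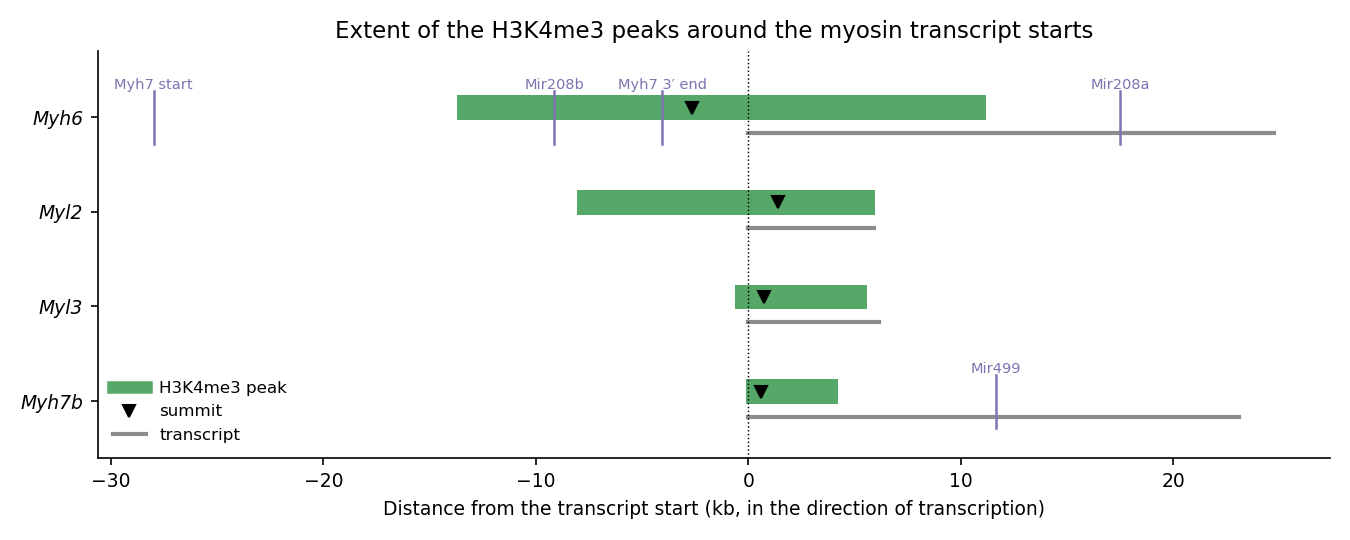
Extent of each myosin peak (green bar) and its summit (triangle) along the distance from the transcript start in kb, with the transcript in grey and neighbouring features as vertical lines. The *Myh6* and *Myl2* peaks extend 13.7 and 8.06 kb upstream of the start, whereas those of *Myl3* and *Myh7b* lie almost wholly downstream.

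The sequence under the peaks was poor in CpG, the dinucleotide that is dense in the promoters of most widely expressed genes. The ratio of observed to expected CpG was 0.22 for *Myh6*, 0.23 for *Myl2*, 0.19 for *Myl3* and 0.25 for *Myh7b*, against a median of 0.64 over the tested peaks. The 4 peaks fell between percentile 2.0 and percentile 4.11 of that distribution, which was not matched for width. In the 250 bases before each start the ratio was 0.14 for *Myh6*, 0.24 for *Myl2*, 0.05 for *Myl3* and 0.11 for *Myh7b*. Among 32851 promoters, with a median of 0.37, these windows fell at percentiles 20.2, 36.1, 7.89 and 16.5. To show what the promoters consist of, the 250 bases before each GENCODE start are given 5′ to 3′ on the strand of the gene (GRCm38). Matches to 5 motifs are in capitals. The letters searched, on both strands, were TATAAA for a promoter box bound by the general transcription machinery, AGATAA for the GATA family of factors, TAAAAATA for MEF2, CATTCC for the TEAD family and TNAAGTG for NKX2-5.
Myh6, chr14:54966642-54966891, minus strand: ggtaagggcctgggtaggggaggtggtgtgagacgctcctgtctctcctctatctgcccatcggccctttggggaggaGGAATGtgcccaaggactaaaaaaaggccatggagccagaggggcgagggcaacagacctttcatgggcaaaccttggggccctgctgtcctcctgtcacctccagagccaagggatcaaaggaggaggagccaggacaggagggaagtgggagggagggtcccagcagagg
Myl2, chr5:122100701-122100950, plus strand: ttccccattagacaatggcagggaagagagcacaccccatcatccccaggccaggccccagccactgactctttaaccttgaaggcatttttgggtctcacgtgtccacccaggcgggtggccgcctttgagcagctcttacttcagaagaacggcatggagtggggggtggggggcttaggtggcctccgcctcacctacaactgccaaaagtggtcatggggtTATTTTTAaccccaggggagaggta
Myl3, chr9:110763396-110763645, plus strand: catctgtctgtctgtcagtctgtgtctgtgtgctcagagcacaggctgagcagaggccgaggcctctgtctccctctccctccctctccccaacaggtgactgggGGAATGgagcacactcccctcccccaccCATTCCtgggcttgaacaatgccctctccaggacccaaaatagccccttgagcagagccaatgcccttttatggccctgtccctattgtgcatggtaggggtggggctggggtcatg
Myh7b, chr2:155610962-155611211, plus strand: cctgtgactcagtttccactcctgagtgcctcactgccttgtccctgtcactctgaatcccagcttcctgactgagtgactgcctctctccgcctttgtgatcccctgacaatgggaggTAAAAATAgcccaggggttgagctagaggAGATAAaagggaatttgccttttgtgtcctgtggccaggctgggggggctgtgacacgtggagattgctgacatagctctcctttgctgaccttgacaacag

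*Myl2* and *Myh7b* held a MEF2 match, 25 bases before the start on the minus strand and 131 bases before it on the plus strand. Such a match was present in 2.45% of 32851 promoters of the same length. *Myh7b* also held a GATA match (9.99% of promoters). *Myh6* had 1 and *Myl3* had 2 TEAD matches (12.6% of promoters). The match of *Myh6* and the first of *Myl3* were on the opposite strand and are printed as GGAATG. None of the 4 windows held TATAAA (12.4% of promoters) or TNAAGTG (10.1%) in these letters, and no matches shared a base. The windows of *Myl4* (before a start with no peak) and *Myl7*, over which there was no peak, held matches as well. That of *Myl4* had a TATAAA match 44 bases before the start next to a TEAD match, and that of *Myl7* a TEAD match. A match is a description of the letters only.

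The heavy chain genes carry a family of miRNAs in their introns, and the mature forms are shown with the seed (bases 2 to 8) in capitals (RefSeq, GRCm38.p6). The hairpin of *Mir208b*, inside *Myh7*, was covered by the *Myh6* peak. That of *Mir208a*, inside *Myh6*, lay 6336 bases beyond its edge.
mmu-miR-208a-3p: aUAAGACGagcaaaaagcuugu
mmu-miR-208b-3p: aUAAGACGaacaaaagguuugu
mmu-miR-499-5p: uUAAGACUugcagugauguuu
The miRNAs 208a and 208b share the seed UAAGACG, and the seed of miR-499-5p is UAAGACU. Mature miRNAs were not measured here.

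Over all libraries the *Myh6* peak had a mean of 2344 normalized counts (counts scaled by the size factor of the library), 1.87 times that of the next highest peak, and it ranked 1st in each of the 6 libraries. *Myl2* and *Myl3* ranked 49th and 69th with means of 599.7 and 552, and *Myh7b* ranked 1522nd with 233. Because wide peaks gather more reads, levels were also compared per kb. Per kb, *Myh6* ranged from 62.0 to 118 normalized counts over the libraries and *Myl3* from 74.1 to 103. *Myh7b* ranged from 44.4 to 67.4 and *Myl2* from 31 to 52.7. On this scale the ranges of *Myh6* and *Myl3* overlapped, as did those of *Myh7b* and *Myl2*, whereas every value of *Myl3* lay above every value of the latter pair. The median of all tested peaks was 60.5 normalized counts per kb.

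**Figure D2:**
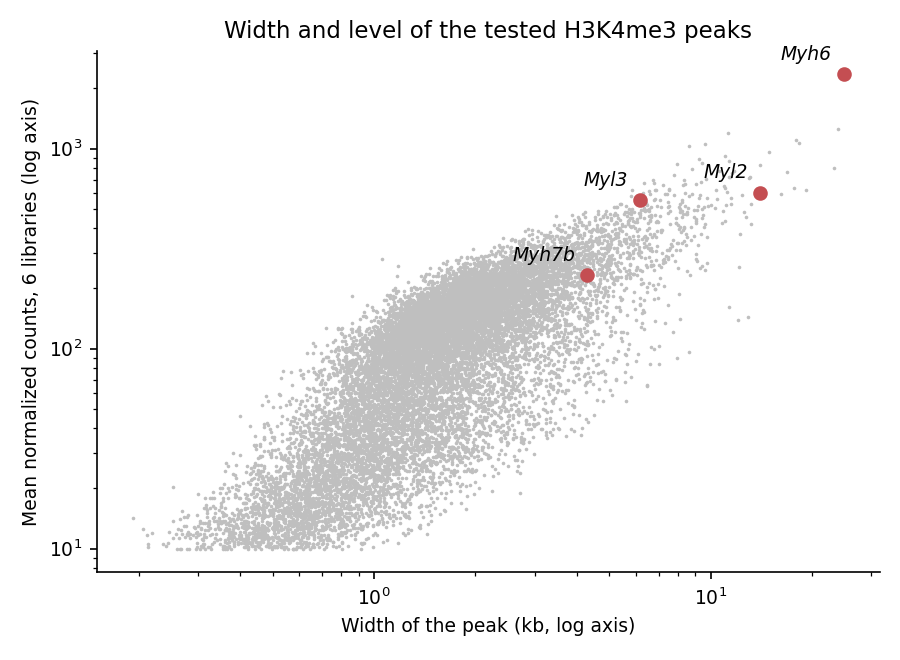
Width of each tested peak in kb against its mean normalized counts over 6 libraries, both on log axes, with the myosin peaks in red. *Myh6* stands at the upper right end with 24.9 kb and 2344 normalized counts.

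To find out whether the mark over the myosin genes differs between the genotypes, the 4 peaks were read from a limma fit over all 15039 tested peaks. None of the 4 passed an adjusted p of 0.05, while 2.93% of all tested peaks did. At an unadjusted p under 0.05, 2 of the 4 passed, *Myh6* and *Myl2*, both lower in *Cpt1b cKO* CMs, against 12.8% of all tested peaks in either direction and 6.98% in that direction. Genotype values overlapped at each of the 4 peaks, whereas 16.3% of tested peaks had no overlap. Fitted with limma-voom on the recovered counts, none of the 4 passed either. In bulk nuclei, fewer nuclei with the mark and less mark per nucleus cannot be told apart.

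The α heavy chain gene had the largest log2 difference of the 4, downwards in *Cpt1b cKO* CMs. In order of replicate, its peak held 2605, 2399 and 2930 normalized counts in the *Ctrl Cre* libraries and 2142, 2446 and 1544 in the *Cpt1b cKO* libraries. *Cpt1b cKO* replicate 2 lay above the lowest control, and replicate 3 was far below the others. The means were 2645 ± 268 and 2044 ± 459 (SD, n = 3 each). The resulting log2 difference of -0.39 (SE 0.16) had a 95% interval from -0.73 to -0.06 and an adjusted p of 0.280 in limma. At this peak 1032 to 3765 counts were recovered per library. Taking 1 count as 1 read, counting error amounted to at most 3.11% of a value. The SD was 22.5% of the mean in *Cpt1b cKO* CMs. Without *Cpt1b cKO* replicate 3 the difference was -0.20, and without both replicates 3 it was -0.13 (adjusted p 0.778 in limma).

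*Myl2*, the regulatory light chain gene, showed a similar order of the libraries. The *Ctrl Cre* libraries had 589, 644 and 740 normalized counts, and the *Cpt1b cKO* libraries had 595, 595 and 435. Only *Cpt1b cKO* replicate 3 fell below all controls. The means were 658 ± 76.4 and 542 ± 92.4 (SD, n = 3 each). They differed by -0.29 on the log2 scale (SE 0.12, 95% interval from -0.54 to -0.04), and limma gave an adjusted p of 0.286. The log2 difference was -0.14 without *Cpt1b cKO* replicate 3 and -0.05 without both replicates 3.

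For the essential light chain gene *Myl3* the means of the genotypes were close. Its peak held 532, 525 and 570 normalized counts in controls and 590, 637 and 458 in *Cpt1b cKO* libraries. Replicates 1 and 2 of *Cpt1b cKO* were above every control, and replicate 3 was below every control. Means of 542 ± 24.2 and 562 ± 92.8 (SD, n = 3 each) differed by 0.04 on the log2 scale (SE 0.11), and limma gave an adjusted p of 0.947. The 95% interval from -0.19 to 0.27 leaves room for a difference of either sign. Without both replicates 3 the log2 difference was 0.21 (adjusted p 0.486 in limma).

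*Myh7b* had the lowest total of the 4 peaks and a log2 difference above 0. Its *Ctrl Cre* libraries had 222, 191 and 238 normalized counts, and its *Cpt1b cKO* libraries had 231, 290 and 224. *Cpt1b cKO* replicate 2 was the highest, and the other values of the genotypes were interleaved. Means of 217 ± 23.9 and 248 ± 36.3 (SD, n = 3 each) differed by 0.19 on the log2 scale (SE 0.11, 95% interval from -0.05 to 0.43), and limma gave an adjusted p of 0.526. Without both replicates 3 the difference was 0.33 (adjusted p 0.412 in limma), and this was the only one of the 4 peaks with an unadjusted p under 0.05 among those 4 libraries. Of all 15039 tested peaks, 1649 had an unadjusted p under 0.05 in limma in the same libraries. Counting error, taken in the same way, reached 11% of the value in *Ctrl Cre* replicate 2, where 82 counts were recovered at the peak.

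**Figure D3:**
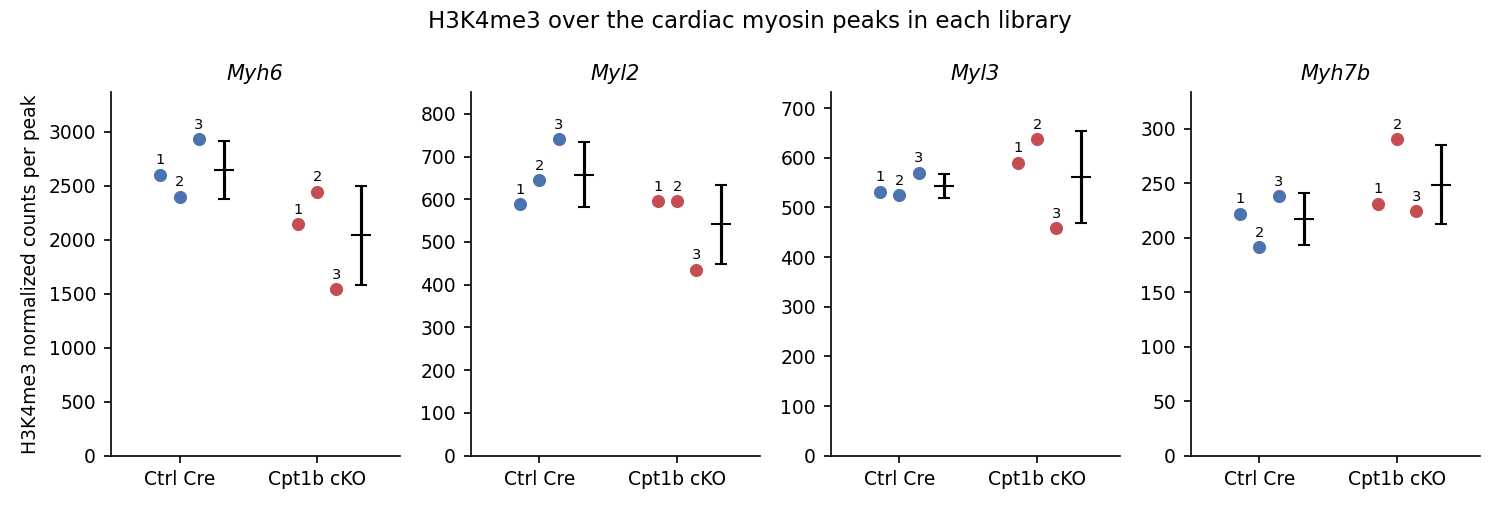
Normalized counts of each myosin peak in the 6 libraries (points numbered by replicate), with the mean and SD of each genotype (bars, n = 3). *Cpt1b cKO* replicate 3 is the lowest *Cpt1b cKO* point in all 4 panels, and the genotypes overlap in each panel.

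The library with the lowest values was the same for all 4 genes within the *Cpt1b cKO* group, namely replicate 3, and it weighed on each difference. Leaving it out moved the log2 difference from -0.39 to -0.20 for *Myh6*, from -0.29 to -0.14 for *Myl2*, from 0.04 to 0.18 for *Myl3* and from 0.19 to 0.26 for *Myh7b*. The summed level of the CM marker genes was also lowest in that library, with 4102 normalized counts against 4985 and 5876 in the other *Cpt1b cKO* libraries and 5201 to 6208 in *Ctrl Cre*. The part of these markers in the myosin values was not tested.

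**Figure D4:**
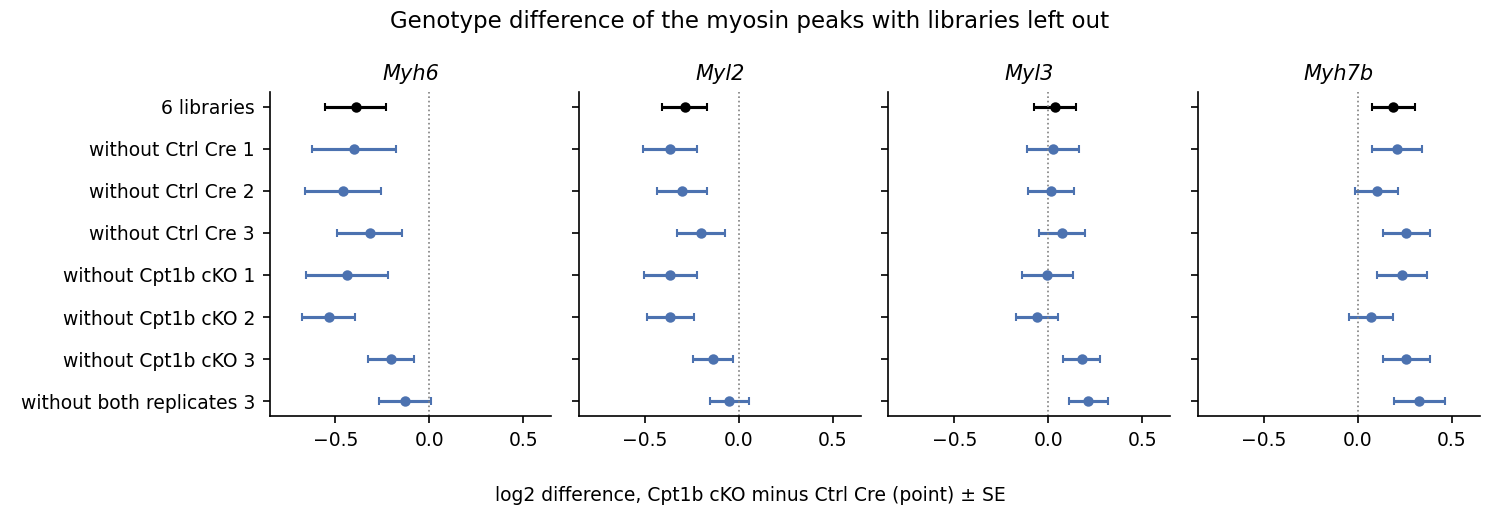
Log2 difference (*Cpt1b cKO* minus *Ctrl Cre*, point ± SE) of each myosin peak with all 6 libraries (black) and with libraries left out (blue). The points of *Myh6* and *Myl2* stay below 0 and those of *Myh7b* above 0, whereas those of *Myl3* fall on both sides.

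Ratios between members within a library do not depend on its scaling, and they were examined after the values had been seen, as a description with no test. The log2 ratio of *Myh6* to *Myl3* was 2.29, 2.19 and 2.36 in controls and 1.86, 1.94 and 1.75 in *Cpt1b cKO* libraries, in order of replicate. Every *Cpt1b cKO* library, replicates 1 and 2 included, thus lay below every control. The same held for *Myl2* to *Myl3*, with log2 ratios of 0.15, 0.29 and 0.38 against 0.01, -0.10 and -0.07. Of all other tested peaks, 7.0% had a ratio to *Myl3* that was lower in *Cpt1b cKO* with no overlap. Of the 6 pairs of members, 4 had ratios that did not overlap between the genotypes, and the exceptions were *Myh6* to *Myl2* and *Myh7b* to *Myl3*. For *Myh7b* as the denominator the share of other peaks that were lower with no overlap was 15.9%.

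Regions next to the genes were read for comparison. Within 50 kb of the 4 genes with a peak lay 13 other peaks, of which 11 were tested. None of these 11 passed an adjusted p of 0.05 in limma, and 2 had an unadjusted p under 0.05, against 12.8% of all tested peaks. Within 50 kb of all 6 genes lay 17 such peaks, of which 15 were tested and 1, which is not described here, passed. Of the 2 peaks with an unadjusted p under 0.05, 1 was a low peak with no gene name, 15062 bases from the nearest *Myl2* start. It held 28, 21 and 15 normalized counts in *Ctrl Cre* and 9, 5 and 11 in *Cpt1b cKO* libraries (log2 difference -1.27, SE 0.45, adjusted p 0.165 in limma). The other was *Slc22a17*, 31399 bases from the nearest *Myh6* start (log2 difference -0.90, SE 0.39). On the same side of the *Myh6* peak as *Slc22a17*, *Efs* lay nearer, 17728 bases from the nearest *Myh6* start (log2 difference -0.25, SE 0.35). *Pabpn1* lay farther out on that side (0.11, SE 0.12), and *Ngdn* lay on the other side (0.07, SE 0.13).

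The atrial light chains were a different case. Of the 8 annotated *Myl4* starts, 1 fell inside a peak, which carried the name of the neighbouring gene *Cdc27*. That peak held 225, 214 and 182 normalized counts in *Ctrl Cre* and 226, 180 and 180 in *Cpt1b cKO* libraries, with a log2 difference of -0.09 (SE 0.11). A low peak with no gene name inside *Myl4* held 13, 14 and 22 normalized counts in *Ctrl Cre* and 15, 10 and 4 in *Cpt1b cKO* libraries. No peak covered the only annotated start of *Myl7*. Of 8 genes listed as markers of atrial CMs, 2 had peaks, *Kcnj3* and *Nr2f2*.

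Beyond the members, 46 genes of the myosin machinery were examined in 5 lists, of which 25 had a peak and 27 peaks were tested. At an adjusted p under 0.05, 3 of the 27 peaks were lower in *Cpt1b cKO* CMs and none was higher, against 1.82% and 1.11% of all tested peaks. At an unadjusted p under 0.05 in limma, 12 of the 27 passed, 5 higher and 7 lower, against 12.8% of all tested peaks. The median log2 difference was -0.03 over the 27 peaks and 0.01 over all tested peaks. Without both replicates 3, none of the 27 passed in limma, and 82 peaks of the whole table did. At an unadjusted p under 0.05 these were 11 of the 27 and 1649 of all 15039 tested peaks.

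The changed peaks of the kinases belonged to *Mylk3*, the cardiac kinase that phosphorylates the light chain encoded by *Myl2*. A peak over 1 of 5 annotated starts of the gene (chromosome 8, 85384412 to 85386690) fell from 74, 65 and 77 to 21, 5 and 9 normalized counts, which is -2.73 on the log2 scale (SE 0.37, adjusted p 6.16e-05 in limma). A peak over 2 further starts (85378374 to 85382581) fell from 101, 81 and 130 to 50, 42 and 36 (log2 difference -1.25, SE 0.19, adjusted p 0.000395 in limma). The study itself singled out *Mylk3* from these libraries and from lower expression, so its direction here is not independent evidence. The paper also reported ChIP–qPCR of H3K4me3 at maturation genes, and of the demethylase KDM5B at *Mylk3* in neonatal CMs. Without both replicates 3 the log2 differences were -2.61 and -0.97, with adjusted p of 0.0628 and 0.104 in limma. At both peaks every *Cpt1b cKO* value was below every control. The main *Mylk3* start lay in a wider peak with no gene name (85357623 to 85365731), which was looked up after the values had been seen and is not counted in the list. That peak held 613, 553 and 650 against 486, 511 and 347 normalized counts (log2 difference -0.45, SE 0.12, adjusted p 0.0439 in limma), and without both replicates 3 the difference was -0.22 (adjusted p 0.479 in limma). The remaining 4 peaks of the list, at *Ppp1cb*, *Ppp1r12a*, *Ppp1r12b* and *Ppp1r12c* (subunits of myosin phosphatase), had log2 differences from -0.13 to 0.03.

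Among other light chains, a narrow peak of *Myl12b*, a regulatory light chain of non-muscle myosin, was lower (24, 35 and 23 against 10, 10 and 8 normalized counts, log2 difference -1.44, SE 0.39, adjusted p 0.0427 in limma). It covered 2 of 6 annotated starts of the gene, and its call was lost in 10 of 16 alternatives, among them the one without both replicates 3 (-1.45, adjusted p 0.193 in limma). None of the 4 tested peaks of other heavy chains (*Myh9*, *Myh10*, *Myh11* and *Myh14*, of non-muscle and smooth muscle cells) passed the test in limma, at an adjusted or an unadjusted p under 0.05. *Myh11*, the heavy chain of smooth muscle, held 18, 14 and 27 normalized counts in *Ctrl Cre* and 15, 6 and 15 in *Cpt1b cKO* libraries. No peak was named *Myh7*.

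The partners of myosin in the thick filament included wide peaks at *Ttn*, *Mybpc3*, *Myom1* and *Myom2*. None of the 6 tested peaks of this list passed an adjusted p of 0.05 in limma. An unadjusted p under 0.05 was found at 3 of them, against 12.8% of all tested peaks. *Mybpc3*, the myosin-binding protein of the heart, held 661, 760 and 690 normalized counts in *Ctrl Cre* and 791, 966 and 777 in *Cpt1b cKO* libraries (log2 difference 0.26, SE 0.11). Its values in *Cpt1b cKO* lay above every control. In the list of folding and turnover factors, none of 6 peaks passed an adjusted p of 0.05 in limma. At an unadjusted p under 0.05, 4 passed, 2 higher and 2 lower, against 12.8% of all tested peaks. The higher ones were *Hsp90aa1* (log2 difference 0.31, SE 0.12) and *Trim54* (0.27, SE 0.12). The lower ones were *Trim55* (-0.30, SE 0.10) and *Unc45a* (-0.34, SE 0.12). The myosin chaperone *Unc45b* had a log2 difference of -0.02 (SE 0.10).

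On the actin side, none of 10 thin filament peaks passed in limma, and 1 had an unadjusted p under 0.05, against 12.8% of all tested peaks. Of 5 actin peaks, 2 were lower and 1 was higher at an adjusted p under 0.05. Over all tested peaks these shares were 1.82% and 1.11%. *Actc1*, the cardiac actin, fell from 858, 723 and 924 to 487, 605 and 307 normalized counts (log2 difference -0.89, SE 0.16, adjusted p 0.00179 in limma). *Acta1*, the skeletal actin that is also expressed in the fetal heart, rose from 22, 46 and 42 to 93, 170 and 142 (log2 difference 1.88, SE 0.24). *Acta2*, the smooth muscle actin, is itself one of the smooth muscle markers whose sum was lower in *Cpt1b cKO* libraries, and the part of smooth muscle cells in the actin and *Myh11* values was not tested. Of 4 peaks in the ventricular list, 2 passed and were lower, against 1.82% of all tested peaks. These were *Fhl2* and *Hey2*, with log2 differences of -0.67 (SE 0.12) and -0.43 (SE 0.09). *Irx4* (-0.16, SE 0.09) and *Lbh* (-0.21, SE 0.11) did not pass. In a fetal and atrial list, 1 of 4 tested peaks, *Acta1*, passed and was higher, against 1.11% of all tested peaks. *Nppb*, *Nr2f2* and *Kcnj3* of that list had log2 differences of 0.13 (SE 0.12), 0.01 (SE 0.13) and -0.19 (SE 0.10). Without both replicates 3, the log2 difference of *Actc1* was -0.54 and that of *Fhl2* -0.51, with adjusted p of 0.128 and 0.0763 in limma. Under the same omission it was -0.43 for *Hey2* (adjusted p 0.148 in limma), while *Acta1* (1.95, adjusted p 0.0445 in limma) and *Acta2* (-2.58, adjusted p 0.0196 in limma) still passed. Whether these differences are larger than those of the myosin genes was not tested.

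**Figure D5:**
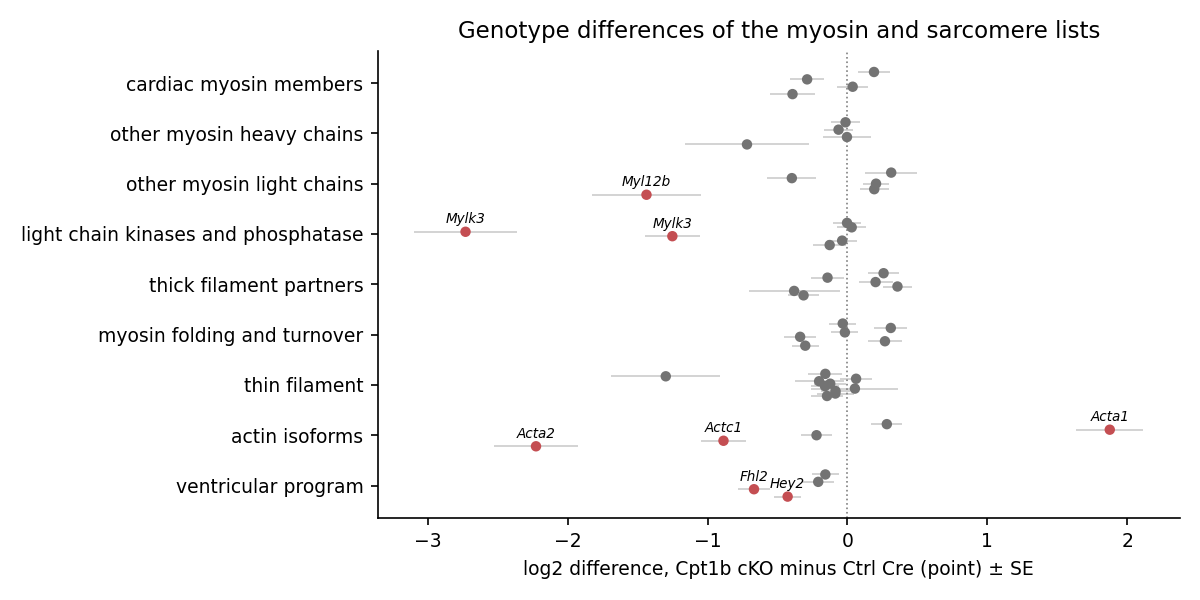
Log2 difference (*Cpt1b cKO* minus *Ctrl Cre*, point ± SE) of each tested peak, by gene list, with peaks at an adjusted p under 0.05 in red and named. The myosin members lie between -0.39 and 0.19, and red points appear among the other light chains, the kinases, the actins and the ventricular list.

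For each member the peak with the most similar profile over the 6 libraries was sought among 9323 peaks with another gene name and a mean of at least 50. The measure was the root mean square difference of centred log2 values. The nearest to *Myh6* was *Tcap* (titin cap, a Z-disc protein) at 0.05, with 282, 251 and 318 normalized counts in *Ctrl Cre* and 236, 258 and 179 in *Cpt1b cKO* libraries. *Actg1* was nearest to *Myl2* (0.05), *Aarsd1* to *Myl3* (0.04) and *Perp* to *Myh7b* (0.02). The median distance to all candidates was between 0.20 and 0.33. Among members, *Myh6* and *Myl2* were closest to each other (0.11) and *Myh6* and *Myh7b* farthest apart (0.32).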

How the data were processed

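H3K4me3 ChIP–seq libraries (1 antibody, 3 per genotype) were grouped by title, and input libraries entered no comparison. Per the labels and methods, the authors trimmed reads (Trimmomatic 0.39), aligned them to mm10 with STAR 2.6.1d keeping unique alignments, removed duplicates (Picard 2.21.7), called peaks with MUSIC and merged them over libraries. The authors divided counts per peak by size factors of DESeq2 1.26.0 and rounded them, and these deposited values were treated as a score. The deposited genotype means give the authors' mean signal before rounding. Deposited log2 fold changes, p-values and adjusted p-values of the authors and the deposited fraction of gene body overlap were not used. Size factors hide a change shared by all peaks, a union peak has 1 width for both genotypes, and unique alignment can thin reads where the sequence is repeated. Windows of 75 bases that recur in the genome made up 4.38% of the *Myh6*, 1.67% of the *Myl3*, 0.315% of the *Myl2* and 0% of the *Myh7b* peak.

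Whole counts were recovered for 15848 of 15848 peaks from the rounded values and the means. They gave 763133 to 2766416 counts per library, and a floor of 3 counts corresponded to 1.95 to 6.97 normalized counts. Counting errors assume that 1 recovered count is 1 read, which was not tested. Counting errors and floors leave out variation between samples. Peaks with a mean of at least 10 (15039) were tested with limma 3.58.1 (R 4.3.3) on log2(value + 1) with a trend, genotype alone, two-sided, with Benjamini–Hochberg adjustment over all tested peaks. Fold changes on this scale understate low peaks. The fit was tested on simulated data. Alternatives changed the pseudocount, the filter, the scaling, the model and the libraries, and those on Y chromosome signal and the ratios between members were chosen after seeing the data.

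Named were all peaks of the 6 genes, peaks within 50 kb of them, listed genes with an adjusted p under 0.05 and the most similar peaks. Listed genes, neighbours and markers named beside these were chosen after their values were seen. The members and lists were chosen with earlier results of these data known. Exons and starts are from GENCODE vM21, and the 6 promoter windows were cut before those starts. The RefSeq starts listed for *Myl2* lay upstream of its window. Some peaks that met these rules are not reported here.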

Additional observations from a re-analysis of the deposited data

Results flagged for a closer look

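The genotype difference of *Myl3* and *Myh7b* pointed one way in the libraries without Y chromosome signal (replicates 1 and 2) and the other way in those with it (replicate 3). For *Myl3* the log2 difference was 0.21 without and -0.31 with Y signal, which differ by 0.529 (unadjusted p 0.0113 and adjusted p 0.859 for the interaction term in limma). For *Myh7b* the values were 0.33 and -0.09, which differ by 0.416 (unadjusted p 0.111, adjusted p 0.859 in limma). With Y signal there was 1 library per genotype, which the fit assumed to vary like the others, and the interaction passed an adjusted p of 0.05 at 1 of 15039 peaks. *Myh6* and *Myl2* were lower in *Cpt1b cKO* CMs on both sides, by a log2 difference of -0.92 with and -0.13 without Y signal for *Myh6*, and of -0.77 with and -0.05 without it for *Myl2* (unadjusted p 0.00309 and 0.00191, adjusted p 0.859 for both in limma). Y signal, replicate number and any other property of the replicate 3 libraries cannot be told apart.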

How the results depend on the processing

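None of the 4 myosin peaks passed an adjusted p of 0.05 in any of 17 alternatives, and the lowest was 0.0579 for *Myh6* without *Cpt1b cKO* replicate 2. Leaving out 1 library gave log2 differences from -0.54 to -0.20 for *Myh6*, -0.36 to -0.14 for *Myl2*, 0.07 to 0.26 for *Myh7b* and -0.06 to 0.18 for *Myl3*. *Myl3* changed sign without *Cpt1b cKO* replicate 1 (-0.0049) or replicate 2 (-0.060). Quantile normalization set the difference of *Myh6* to 0 by construction, since its peak was the highest in every library. Peaks past an adjusted p of 0.05 numbered 441 with all libraries, 229 to 431 with 1 library left out (the lowest without *Ctrl Cre* replicate 1, 288 and 246 without *Cpt1b cKO* replicates 2 and 3), 43 without an intensity trend in limma and 82 without both libraries with Y chromosome signal, where fewer samples remain. The 3 listed myosin pathway peaks became 1 with a mean of at least 50, which left out *Myl12b* and a *Mylk3* peak, 0 without the trend, 0 without both libraries with Y signal, and 2 to 3 with 1 library left out. The cause of the change without the trend was not tested. Deviations of same-numbered libraries from their genotype means had correlations of 0.076, -0.081 and 0.11. These show no strong shared deviation, but they cannot exclude that the numbers pair the libraries. The replicate block gave 370 peaks and 2 pathway peaks, and log2 differences as without it, with adjusted p of 0.546 for *Myh6*, 0.424 for *Myl2*, 0.965 for *Myl3* and 0.616 for *Myh7b*. The block lost the call of *Myl12b* (adjusted p 0.0599). Depth limits *Myh7b* most, since the shallowest library had 82 counts there.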
